A study of Mus musculus with 33 samples.

Results

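The immediate early genes Fos, Fosb, Jun, Junb, Atf3, Egr1, Egr2, Egr3, Ier2 and Ier3 were measured in sorted mammary cells of mice with or without the gene for PTHrP in their mammary epithelium. They were chosen by name and are 10 of the 55487 genes in the count table. All 10 passed the filter of at least 10 reads summed over all libraries. RNAseq gave 1 library per mouse for 33 mice.

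Tumor mice were PyMT-MMTV; Cre+; mTmG and either Pthrpwt/wt (here WT) or Pthrpflox/flox (here KO). Tumor-free mice had the same Pthrp alleles, Cre and mTmG reporter but not PyMT. WT tumors were taken at weeks 6, 8 and 10 (3 mice each) and 12 (1 mouse), and KO tumors at weeks 8, 10 and 12 (3 mice each). WT glands were taken at weeks 6, 8, 10 and 12 and KO glands at weeks 8, 10 and 12 (2 mice each). All groups carried Cre, whose MMTV promoter, like that of the PyMT oncogene, is active mainly in mammary epithelium. Tissue was digested with enzymes, kept for days in medium with serum, and sorted for GFP, which the reporter makes after Cre has acted. Every library went through these steps, and no uncultured or unsorted cells were sequenced. The levels of these genes in the intact tissue and the effect of culture and sorting therefore cannot be told apart here.

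Immediate early genes are transcribed within minutes of a stimulus such as serum, growth factors, cAMP or stress, without the need for new protein. Their transcripts decay quickly, so their level at harvest follows what cells met shortly before. Fos, FosB, Jun and JunB form the dimeric transcription factor AP-1, and ATF3 is a related stress-induced factor. EGR1, EGR2 and EGR3 are zinc finger transcription factors, IER2 is a nuclear protein induced by growth factors, and IER3 acts on cell survival. Dissociation of tissue and sorting are known to induce this class of genes.

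Many of these promoters hold sites for CREB, the factor that cAMP signalling activates, and CArG boxes, which serum response factor binds. The 250 bases before the start of transcription were read from RefSeq (GRCm38.p6) for the 7 members listed there. They are shown for Fos, the reference of the covariation described further on, for Atf3, the member that differed most firmly between KO and WT tumors, and for Egr2, the member that differed most between tumors and glands. Capitals mark TGACG (the core of the CREB site, on either strand), TATAAA and, in Egr2, the CArG box.
Fos, chr12:85473640-85473889, plus strand: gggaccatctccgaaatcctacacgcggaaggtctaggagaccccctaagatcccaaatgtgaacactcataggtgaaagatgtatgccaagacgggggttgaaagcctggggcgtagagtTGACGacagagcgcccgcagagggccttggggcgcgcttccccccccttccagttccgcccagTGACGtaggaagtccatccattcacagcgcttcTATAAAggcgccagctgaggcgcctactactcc
Atf3, chr1:191183334-191183583, minus strand: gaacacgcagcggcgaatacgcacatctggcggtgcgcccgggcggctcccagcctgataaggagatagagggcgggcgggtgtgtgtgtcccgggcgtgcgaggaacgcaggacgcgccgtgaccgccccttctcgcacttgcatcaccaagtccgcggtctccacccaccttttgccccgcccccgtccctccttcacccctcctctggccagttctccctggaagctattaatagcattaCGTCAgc
Egr2, chr10:67537680-67537929, plus strand: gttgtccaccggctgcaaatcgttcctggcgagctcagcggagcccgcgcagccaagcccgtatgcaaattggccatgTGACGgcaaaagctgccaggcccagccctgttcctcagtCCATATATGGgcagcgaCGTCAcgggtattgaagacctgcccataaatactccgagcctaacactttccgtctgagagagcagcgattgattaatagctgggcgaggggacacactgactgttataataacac

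TGACG was present in this window in 5 of the 7 members (Fos, Fosb, Junb, Atf3 and Egr2), against 17.8% of 32851 promoters of the same length. A member was counted if any of its starts had the match, while the percentages are over single starts. The CArG box was found in Egr2 only, which has 5 starts in the table, against 1.47% of promoters. TATAAA was found in Fos, against 12.4% of promoters. The full palindrome TGACGTCA (1.55% of promoters), the AP-1 site TGANTCA (6.75%) and the EGR site GCGTGGGCG (0.536%) were in none of the 7 windows. TGACGTCA contains TGACG on both strands. A match is a description of these letters and not evidence of binding.

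Counted reads were 28419983 to 130981596 per library. Reads of the PyMT transgene, summed over its 4 rows, were 108 to 7576 in the tumors and 0 in every gland. Pthlh, the gene of PTHrP, had 1.35 to 2.29 CPM (reads scaled by the TMM-normalized library size) in KO tumors and 1.47 to 6.67 CPM in WT tumors, a log2 difference of -0.59 (SE 0.22, adjusted p = 0.229 in edgeR), counted over the whole gene and not over the deleted part. The share of reads on rRNA genes was at most 0.447% in WT libraries and reached 18.8% in KO libraries. The 10 luminal markers summed to 5431 to 13700 CPM over all libraries. The 10 basal markers summed to 5311 to 20770 CPM in glands and 1006 to 5420 CPM in tumors. Sums were at most 25.5 CPM for lymphocyte, 60.4 for endothelial, 40.1 for adipocyte, 757 for fibroblast and 418 for macrophage markers.

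The members differed widely in level. Per kilobase of exon, mean levels were 471 CPM for Ier3, 235 for Junb, 220.1 for Fos, 102 for Jun, 72.4 for Ier2, 54.9 for Fosb, 32.7 for Atf3, 17.1 for Egr1, 2.57 for Egr2 and 2.04 for Egr3. On this scale Ier3 ranged from 306 to 628 CPM over the libraries and Fos from 52.5 to 459 CPM. The range of Egr3 (0.420 to 4.96) lay inside that of Egr2 (0.378 to 7.90), and that of Junb (147 to 409.5) lay inside that of Fos. In the annotation of GRCm38 the genes lie on chromosome 12 (Fos, 85473890 to 85477273), 7 (Fosb, 19302696 to 19310051), 4 (Jun, 95049034 to 95052222), 8 (Junb, 84974484 to 84978718, and Ier2, 84661331 to 84662852), 1 (Atf3, 191170296 to 191218039), 18 (Egr1, 34859823 to 34864984), 10 (Egr2, 67535475 to 67542188), 14 (Egr3, 70077203 to 70082614) and 17 (Ier3, 35821684 to 35822923). Jun overlaps Junos, Junb overlaps Prdx2 and Atf3 overlaps Gm24748, each on the opposite strand. Whether the authors counted by strand is not given in the sources used here, so reads of such a pair may not have been told apart.

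**Figure D1:**
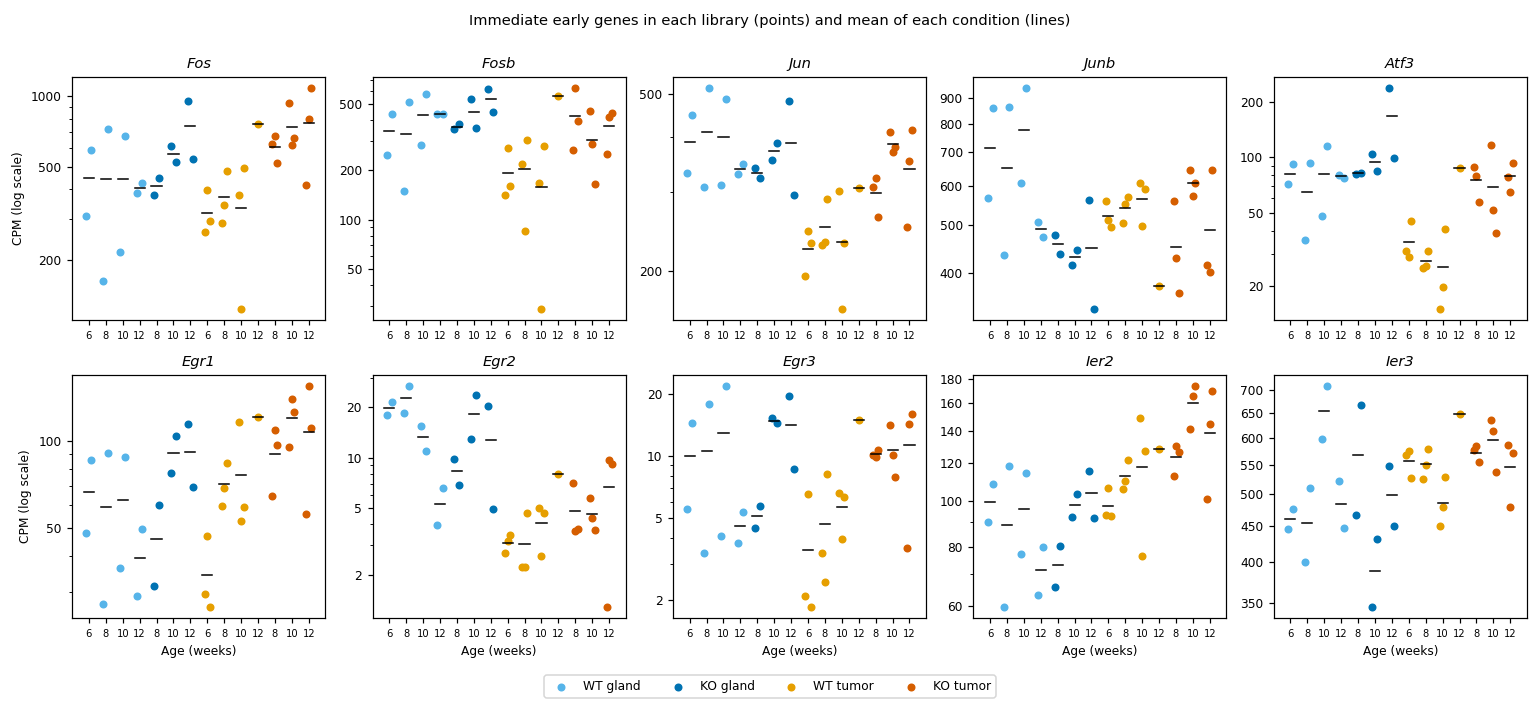
Level of each immediate early gene in each library, in CPM on a log scale, against age in weeks, with colors for genotype and tissue and a line at the mean of each condition. WT tumors of weeks 6 to 10 lie low for Atf3 (15.1 to 45.1 CPM) and Egr2 (2.21 to 5.01 CPM), and WT glands of 1 condition lie far apart for Fos and Egr3.

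The first question was whether these genes varied more between mice of 1 condition or between conditions, a condition being 1 genotype, tissue and week. For 9 of the members, all but Ier3, mice of 1 condition differed more than for most genes of at least 10 CPM. The SD within conditions of log2 CPM, pooled over the 13 replicated conditions, had a median of 0.57 over the 10 members, 0.18 over the 9488 genes with a mean of at least 10 CPM and 0.46 over all genes tested, which include those of low count. It was 0.88 for Egr3, 0.84 for Fosb, 0.75 for Egr2, 0.67 for Fos, 0.59 for Egr1 and 0.55 for Atf3, and each of these lay above that of 93.5% or more of those 9488 genes. Jun (0.30), Junb (0.30) and Ier2 (0.31) lay above 78.5% to 79.5% of them, and Ier3 (0.16) above 39.0%. Egr2 and Egr3, with means of 8.73 and 9.01 CPM, are not themselves among these 9488 genes. Against all genes tested, Egr3 lay above 94.7%, Fosb 93.0%, Egr2 87.9%, Fos 80.03%, Egr1 70.07% and Atf3 64.4%, while Jun, Junb and Ier2 lay above 25.3% to 26.1% and Ier3 above 10.5%. For Fos, 1 SD within a condition was a 1.59-fold difference, and for Ier3 it was 1.12-fold.

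Conditions also differed, so the share of the spread that lay within them was not unusual. A median of 38.2% of the sum of squares of the members lay within conditions, against 39.1% for the genes with at least 10 CPM. A gene with no difference between conditions would have 61.3% there on average. Fos had the highest share within conditions (53.8%), followed by Fosb (49.98%), Egr3 (49.6%) and Junb (49.0%). Atf3 (24.3%) and Egr2 (26.4%) had the lowest, and the means of their conditions spanned 2.73 and 2.95 on the log2 scale. In the test of any difference among the 13 conditions, 6 of the 10 members were called (adjusted p under 0.1), against 21% of all genes tested and 42.5% of the genes with at least 10 CPM. They were Egr2 (adjusted p = 0.000522), Atf3 (0.00161), Ier2 (0.0263), Jun (0.0401), Ier3 (0.0463) and Egr1 (0.0741). Fos did not pass (adjusted p = 0.339), nor did Fosb (0.413), Egr3 (0.221) or Junb (0.188).

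**Figure D2:**
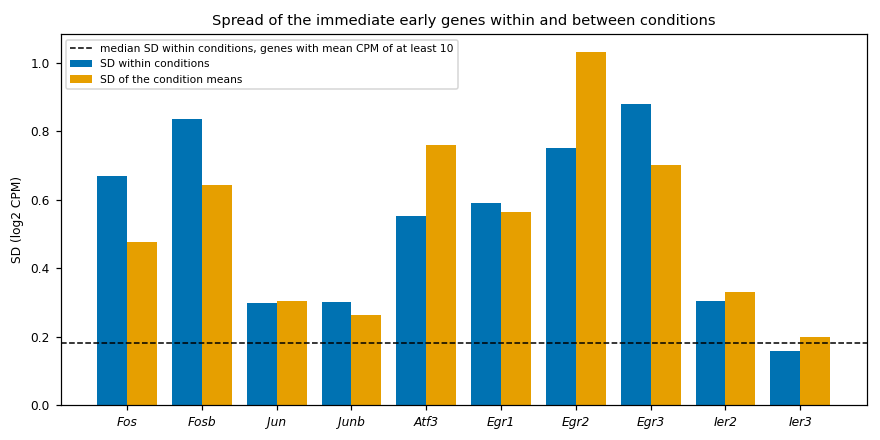
SD of log2 CPM within conditions (blue) and SD of the condition means (orange) for each member, with a dashed line at the median SD within conditions of genes with a mean of at least 10 CPM (0.18). Bars start at 0, and for all members but Ier3 the blue bar is above the line.

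For Fos and Egr3, WT glands held the widest pairs of mice. Fos was 306 and 587 CPM in the 2 WT glands of week 6, 162 and 725 CPM at week 8, and 217 and 672 CPM at week 10. At week 12 it was 384 and 425 CPM. Egr3 was 5.50 and 14.4 CPM at week 6, 3.37 and 17.8 CPM at week 8, 4.11 and 21.9 CPM at week 10, and 3.76 and 5.35 CPM at week 12. In both genes the same mouse of each pair was the higher one. Over these glands the SD within conditions of Fos was 1.01, against 0.36 in KO glands, 0.67 in WT tumors and 0.46 in KO tumors. This SD was also largest in WT glands for Egr3 (1.31), Egr1 (0.86), Atf3 (0.67), Junb (0.47), Ier2 (0.43) and Jun (0.38). For Egr2, Fosb and Ier3 it was larger elsewhere. The SD of Egr2 was 0.93 in KO glands, 1.01 in KO tumors and 0.38 in WT glands. That of Fosb was 1.17 in WT tumors and 0.79 in WT glands, and that of Ier3 was 0.27 in KO glands and 0.17 in WT glands.

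The members moved together between mice of 1 condition. Taking each library relative to the mean of its condition (32 libraries), the correlation with Fos was 0.899 for Jun, 0.877 for Ier2, 0.854 for Egr3, 0.823 for Fosb, 0.775 for Junb, 0.721 for Egr1, 0.662 for Atf3, 0.519 for Egr2 and 0.441 for Ier3. Spearman's rho was 0.489 to 0.891 for the same genes, and without the 2 libraries farthest from the median of Fos, r was 0.473 to 0.891 for all of them. Jun had the highest correlation with Fos of all genes with a mean of at least 1 CPM. In edgeR with the conditions as terms, 7 of the other 9 members rose with Fos (adjusted p 0.000244 to 0.0433), against 2.02% of all genes called in either direction. Egr2 (adjusted p = 0.213) and Ier3 (0.339) were not called. The count fell to as few as 4 when a single WT gland of week 8, replicate 1 or 2, was left out.

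The slope on Fos, in log2 units per log2 unit of Fos, differed between members. It was 1.12 (SE 0.15) for Egr3 and 1.00 (SE 0.15) for Fosb, so these genes changed about as much as Fos. It was 0.66 (SE 0.13) for Egr1, 0.56 (SE 0.13) for Atf3, 0.40 (SE 0.05) for Jun, 0.40 (SE 0.05) for Ier2 and 0.35 (SE 0.06) for Junb. All 45 pairs of members correlated above 0, with a median of 0.571 and a range of 0.036 to 0.899. Jun followed Fos in WT (r = 0.916, n = 17) and KO libraries (0.904, n = 15), and in glands (0.927, n = 14) and tumors (0.870, n = 18). Atf3 and Egr1 followed it closely in glands (0.935 and 0.907) and less in tumors (0.399 and 0.495), while Egr2 followed it more in tumors (0.716) than in glands (0.271). These differences were not tested. Here n counts libraries and not independent points. Gland conditions were pairs of mice, whose deviations from their mean were equal and opposite. An n that includes glands therefore overstates the support for its correlation. Over all replicated conditions, 19 degrees of freedom lay within conditions.

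**Figure D3:**
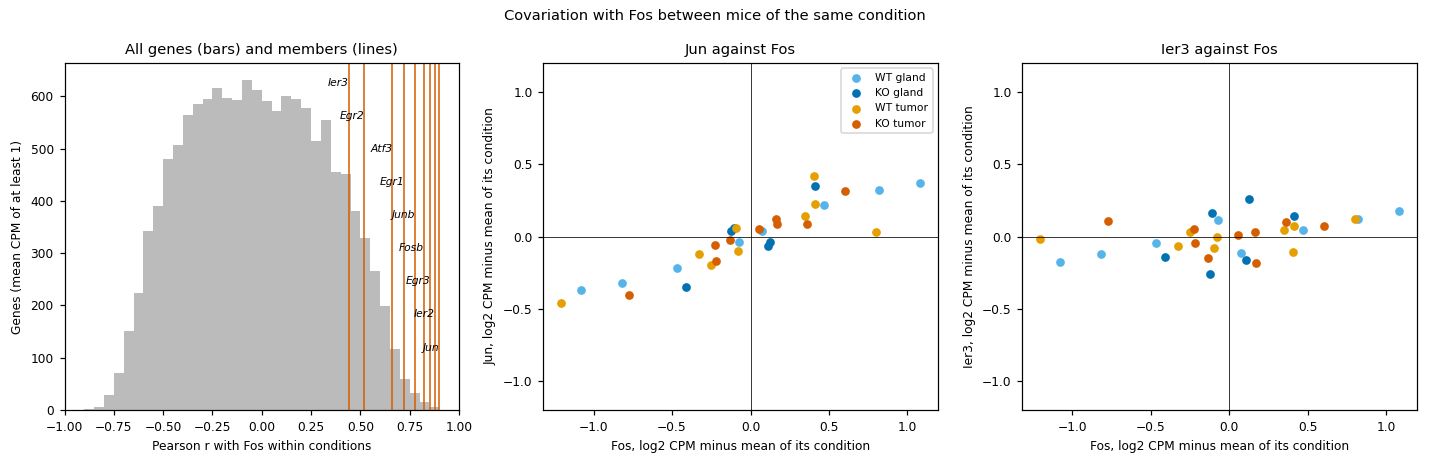
Left, Pearson r with Fos between mice of 1 condition for all genes with a mean of at least 1 CPM (bars) and for the members (lines). Middle and right, log2 CPM of Jun and of Ier3 minus the mean of the condition against that of Fos in 32 libraries, where Jun follows Fos (r = 0.899) and Ier3 does so less (r = 0.441).

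Genes outside the members that were most like Fos in this measure were C2cd4b (r = 0.889), Klf2 (0.880), Rgs2 (0.878), Tcim (0.870), Hes1 (0.861), Gm38140 (0.859), Nr4a1 (0.844), Ier5 (0.838), Klf4 (0.824) and Jund (0.824). Klf2 and Klf4 are zinc finger factors, Nr4a1 is an immediate early nuclear receptor, Rgs2 dampens G protein signalling and Hes1 is a repressor downstream of Notch. Of 44 other immediate early genes with at least 1 CPM, 11 rose and 1 fell with Fos, while 261 rose and 270 fell among 13314 genes. None of 16 heat shock genes was called, with a median r of -0.181. Of 7 fibroblast markers at this level 2 rose with Fos (median r = 0.499), and of the 10 luminal and 10 basal markers none was called. The part of other cells in this covariation was not tested. With the rRNA share in place of Fos, none of the 10 members was called by edgeR, against 0.936% of all genes. The strongest was Egr2, with a slope of -0.33 log2 units per log10 unit of rRNA share (SE 0.10, edgeR adjusted p = 0.185). An unadjusted p under 0.05 was found for 3 members, Egr2, Junb and Atf3.

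Next, tumors were compared with glands of the same genotype and week. A gene was called at a fold change over 1.5 and an adjusted p under 0.1 in edgeR. Over the mean of 6 such pairs, 3 of the 10 members were lower in tumors and none was higher, against 14.9% of all genes called in either direction and 8.23% called lower. Egr2 was 3.56-fold lower (log2 difference -1.83, SE 0.23, adjusted p = 5.68e-07), Atf3 was 1.959-fold lower (-0.97, SE 0.18, adjusted p = 0.000149) and Fosb was 1.57-fold lower (-0.65, SE 0.25, adjusted p = 0.0674). Jun was lower (-0.43, SE 0.10, adjusted p = 0.00176), and Ier2 (0.41, SE 0.10, adjusted p = 0.00346) and Ier3 (0.15, SE 0.06, adjusted p = 0.0939) were higher, by less than the fold limit. Fos did not differ detectably, at 522 CPM in tumors and 510.2 CPM in glands (log2 difference -0.03, 95% interval -0.44 to 0.38). The median log2 difference of the members was -0.26, against 0.08 over all genes. In bulk samples fewer cells of a type and less RNA per cell cannot be told apart. All 10 basal markers were lower in tumors (median log2 difference -2.96), and in WT mice 6 of 10 fibroblast (median -1.78), 6 of 10 endothelial (-1.55) and 4 of 10 macrophage markers (-0.51) were lower too. The macrophage marker Cd14 was higher (1.83, SE 0.18, adjusted p = 3.85e-08), and the summed level of the 10 macrophage markers was 151 to 292 CPM in the 10 WT tumors and 62.9 to 173 CPM in the 8 WT glands. The part of these cells in the lower levels of the members was not tested.

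In WT mice alone, 5 of the 10 members were called lower and none higher, against 15.7% of all genes in either direction and 9.53% lower. Egr2, which acts in growth and differentiation, was 5.37-fold lower. It was 17.99 and 21.7 CPM in WT glands of week 6, 18.5 and 26.8 CPM at week 8, and 15.6 and 10.97 CPM at week 10. In WT tumors it was 2.70, 3.19 and 3.43 CPM at week 6, 2.21, 2.22 and 4.70 CPM at week 8, and 5.01, 2.60 and 4.66 CPM at week 10. All 9 of these tumors were below all 6 glands. The WT glands of week 12, which have no replicated tumors beside them, held 3.96 and 6.56 CPM and overlapped with tumors. The log2 difference of Egr2 was -2.42 (SE 0.33, adjusted p = 3.71e-06).

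Jun, the main partner of Fos in AP-1, was 308 to 514 CPM in WT glands of weeks 6 to 10 and 164 to 302 CPM in WT tumors, again with no overlap (log2 difference -0.77, SE 0.14, adjusted p = 0.000230). Atf3 was 71.8 and 91.6 CPM in WT glands of week 6, 35.8 and 93.8 CPM at week 8, and 48.4 and 115 CPM at week 10. In WT tumors it was 30.97, 28.7 and 45.1 CPM at week 6, 25.0, 25.9 and 31.1 CPM at week 8, and 15.1, 19.8 and 41.2 CPM at week 10. Of these 9 tumors 7 were below every gland (log2 difference -1.39, SE 0.25, adjusted p = 0.000216). Fosb (184 CPM in tumors and 368 CPM in glands, adjusted p = 0.0499) and Egr3 (-1.30, SE 0.39, adjusted p = 0.0201) were the other members called. Both lost the call without replicate 2 of the WT glands of week 6, 8 or 10, the higher gland of each pair, and the count was then 3. In a fit of the compared conditions alone Fosb was not called either (-0.98, adjusted p = 0.119). The log2 difference without 1 library was -1.23 to -0.62 for Fosb and -1.57 to -0.75 for Egr3. Fosb over the mean of 6 pairs also lost its call without each of 9 libraries, with log2 differences of -0.61 to -0.45, while over all 32 libraries left out in turn the range was -0.76 to -0.45. These were replicate 2 of the WT glands of weeks 6, 8 and 10 and of the KO glands of week 8, replicate 1 of the KO glands of weeks 10 and 12, replicate 2 of the WT tumors of weeks 8 and 10, and replicate 3 of the KO tumors of week 10.

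In KO mice, Ier2 was higher and Egr2 lower in tumors, so 2 of the 10 members were called, against 10.6% of all genes. Ier2 was 65.9 to 115 CPM in the 6 KO glands (median 92.3) and 100.7 to 174 CPM in the 9 KO tumors (median 141), a log2 difference of 0.63 (SE 0.15, adjusted p = 0.00367). It fell under the fold limit without replicate 1 of the KO glands of week 8 or replicate 3 of the KO tumors of week 12, at 0.57 to 0.70 over all libraries left out. Egr2 was 4.92 to 23.7 CPM in KO glands and 1.28 to 9.71 CPM in KO tumors, which overlap (log2 difference -1.24, SE 0.32, adjusted p = 0.00857). Without replicate 1 of the KO glands of week 12, which held 20.5 CPM, it was -0.77 (adjusted p = 0.134). Fos, Jun, Fosb and Egr3 had log2 differences of 0.32, -0.10, -0.29 and 0.07 and were not called. Atf3 was lower but not called (-0.55, SE 0.25, edgeR adjusted p = 0.180). With the rRNA share as a covariate Atf3 was called.

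Single pairs of a tumor and a gland condition gave 10 calls among the members. In WT mice these were Jun and Egr2 at week 6 (against 5.86% of all genes), and Jun, Atf3 and Egr2, all lower, at week 8 (9.19%) and at week 10 (6.13%). In KO mice none was called at week 8 (2.49%) or week 12 (6.11%), and at week 10 (5.66%) Egr2 was lower and Ier3 higher. Ier3 was 346 and 432 CPM in these KO glands and 635, 614 and 537 CPM in the tumors (log2 difference 0.61, SE 0.15, adjusted p = 0.0164). The difference of the tumor effect between the genotypes, over weeks 8 and 10, was called for none of the members in edgeR or DESeq2, against 0.00548% of all genes (2 genes). All 10 estimates were above 0, with a median of 0.75, and 5 members had an unadjusted p under 0.05, as had 2038 of the 36527 genes. Atf3 had 1.18 (95% interval 0.31 to 2.06) and Jun 0.70 (0.22 to 1.19).

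**Figure D4:**
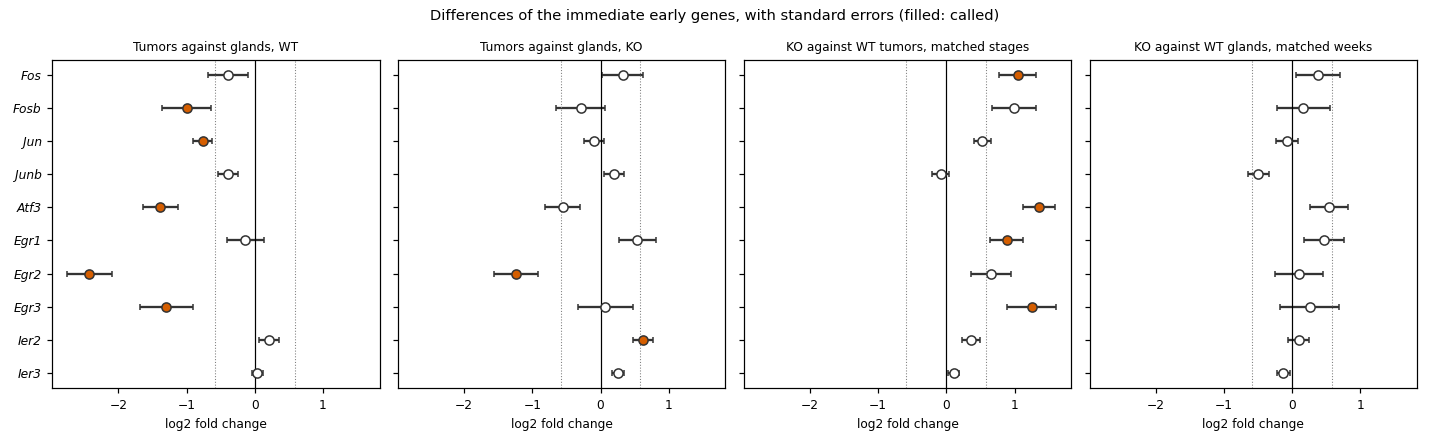
Log2 fold changes with standard errors for each member in 4 comparisons, filled where called, with dotted lines at the 1.5-fold limit. Members lie mostly below 0 in WT tumors against glands and mostly above 0 in KO against WT tumors, and none is called between KO and WT glands.

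KO tumors were then compared with WT tumors, which addresses whether the loss of PTHrP goes with another level of these genes. At the stages named in the study (hyperplasia, adenoma and carcinoma, at weeks 6, 8 and 10 in WT and 8, 10 and 12 in KO mice), 4 of the 10 members were higher in KO tumors and none was lower, against 1.11% of all genes in either direction and 0.824% higher. Atf3 was 2.57-fold higher (log2 difference 1.36, SE 0.23, adjusted p = 0.00458). Fos was 2.06-fold higher (1.04, SE 0.27, adjusted p = 0.0535), Egr3 2.38-fold (1.25, SE 0.36, adjusted p = 0.0941) and Egr1 1.85-fold (0.89, SE 0.24, adjusted p = 0.0756). Jun passed the test but not the fold limit (0.53, SE 0.13, adjusted p = 0.0388). The median of the members was 0.77, against -0.06 over all genes.

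Fos was 263, 399 and 293 CPM in WT tumors of week 6, 288, 342 and 480.2 CPM at week 8, and 377, 123 and 495 CPM at week 10. In KO tumors it was 627, 677 and 519 CPM at week 8, 933, 619.6 and 662 CPM at week 10, and 416, 798 and 1080.3 CPM at week 12. Of the 9 KO tumors 8 were above these 9 WT tumors. The lone WT tumor of week 12, which entered no comparison, held 761 CPM, within the range of KO tumors. Atf3 was 88.6, 79.7 and 57.2 CPM in KO tumors of week 8, 117, 51.6 and 38.9 CPM at week 10, and 78.6, 64.9 and 93.2 CPM at week 12. Of these 8 were above every WT tumor of weeks 6 to 10, whose highest value was 45.1 CPM. The WT tumor of week 12 held 87.8 CPM of Atf3, 14.9 CPM of Egr3 and 121 CPM of Egr1, again within the range of KO tumors. KO tumors of a stage came from older mice than WT tumors of that stage. Egr3 was 3.57 to 15.9 CPM in KO tumors and 1.85 to 8.17 CPM in WT tumors of weeks 6 to 10, and 7 KO tumors were above all of the latter. Egr1 was 55.97 to 155 CPM and 26.6 to 116 CPM, with more overlap, since 3 KO tumors were above all WT tumors of weeks 6 to 10. Junb overlapped (365 to 646 CPM and 496 to 606 CPM), with a log2 difference of -0.08 and a 95% interval of -0.34 to 0.17.

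Of these calls, that of Atf3 was kept in every fit without 1 library (log2 difference 1.16 to 1.54, adjusted p at most 0.0146). Fos lost it without replicate 1 of the WT tumors of week 6 or 8, replicate 2 of the KO tumors of week 8 or replicate 3 of the KO tumors of week 12, at 0.91 to 1.18 over all libraries left out. Egr1 (0.77 to 1.03) and Egr3 (1.14 to 1.53) lost it without 13 and 20 of the 32 libraries. The number of members called was 1 to 5 and differed by over 1.5 times from 4 without replicate 1 or 3 of the WT tumors of week 6, 1 or 2 of week 8 or 2 of week 10, or without replicate 2 or 3 of the KO tumors of week 8, 10 or 12. None of the genes on the lists of cell type markers was called between KO and WT tumors. The rRNA share differed between the genotypes, and so did the share of mitochondrial reads, at 1.24% to 8.87% in KO tumors (median 6.59%) and 1.28% to 3.47% in WT tumors (median 1.77%). The latter share was 2.69% to 9.09% in KO glands and 0.895% to 2.25% in WT glands, and its part was not tested. Of the KO tumors 3, 1 of each week, had an rRNA share within the range of WT libraries. They held 627, 933 and 1080.3 CPM of Fos and 88.6, 117 and 93.2 CPM of Atf3. With these as the only KO tumors, Atf3 alone was called, and Fos had a log2 difference of 1.33 (adjusted p = 0.530). With the rRNA share as a covariate, Egr1 (0.83, adjusted p = 0.194) and Egr3 (1.39, adjusted p = 0.101) lost the call and Jun gained it. Over matched weeks 8 and 10, 1 of the 10 members was called, against 0.512% of all genes, namely Atf3 (log2 difference 1.45, SE 0.29, adjusted p = 0.0257). Fos had 0.93 there (SE 0.33, adjusted p = 0.266).

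KO and WT glands did not differ detectably in any member at matched weeks (none of 10 called by edgeR or DESeq2, 1 with an unadjusted p under 0.05, as had 4514 of the 36527 genes), against 0.906% of all genes called. Junb had the smallest p, at 446 CPM in KO and 638 CPM in WT glands (log2 difference -0.49, SE 0.16, adjusted p = 0.169). Fos had 576 and 431 CPM (0.38, 95% interval -0.26 to 1.02). Atf3 (0.54, 95% interval -0.01 to 1.10) and Egr1 (0.47, -0.12 to 1.05) also had estimates above 0, as between tumors. Of the 10 estimates 7 were above 0 and 3 below. Without replicate 1 of the WT glands of week 8 or 10, or of the KO glands of week 12, Junb was called. Between the first and last week no member was called by edgeR in WT tumors (0.011% of all genes called, 1 member with an unadjusted p under 0.05), KO tumors (0% and none), WT glands (0.35% and 1) or KO glands (0.567% and 1), and DESeq2 called 1 member in 1 of these series. Unadjusted p was under 0.05 for 3122, 2878, 2994 and 3387 of all genes in the same order. The largest estimate was Egr2 in WT glands, at 19.8 CPM in week 6 and 5.26 CPM in week 12 (log2 difference -1.91, SE 0.64, adjusted p = 0.315).

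The wider class of immediate early genes was examined on a list. Of 46 genes chosen with earlier results known, 9 were lower and 1 higher in tumors over the mean of 6 pairs (median log2 difference -0.16), against 8.23% of all genes lower and 14.9% in either direction. Arc, known from synapses, fell most firmly, from 23.2 to 119 CPM in glands to 6.52 to 20.7 CPM in tumors (log2 difference -2.38, SE 0.18, adjusted p = 1.11e-10). Npas4 (-3.66) and Egr4 (-1.61) were lower too but stayed under 1 CPM in every library, while Dusp2 (-3.51) and Klf4 (-1.23) were more abundant. The member that rose was Tnfaip3, an inhibitor of NF-kB, named after its value was seen (1.00, SE 0.15, adjusted p = 5.40e-06).

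In KO against WT tumors at matched stages, 7 of the 46 were higher and none lower (median 0.26), against 1.11% of all genes in either direction. Dusp1, a phosphatase that switches off MAP kinases, was 84.6 to 239 CPM in the 9 KO tumors and 17.3 to 62.6 CPM in the 9 WT tumors of weeks 6 to 10, with no overlap (log2 difference 1.63, SE 0.22, adjusted p = 0.000272). Per1, a clock gene that also responds to cAMP and glucocorticoids, was 19.6 to 40.2 CPM and 9.79 to 18.04 CPM, again with no overlap (1.11, SE 0.14, adjusted p = 0.000208). Nr4a3 (1.16), Klf4 (1.15) and Plk3 (1.00) were also called. Between KO and WT glands 1 of the 46 was called, namely Gadd45b, which was lower in KO (-0.61, SE 0.11, adjusted p = 0.00967), against 0.906% of all genes. The median of the list there was 0.22. Dusp1 was 97.5 to 204 CPM in KO glands and 38.8 to 106 CPM in WT glands, and Per1 was 18.1 to 30.2 CPM and 8.79 to 20.7 CPM, though neither was called. Tested directly over weeks 8 and 10, the difference between genotypes was not called as larger or smaller in tumors than in glands for any of the 46 (median log2 difference 0.36).

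Regulators of these genes were examined next. Of 22, among them kinases and transcription factors that act on their promoters, Crtc2, a coactivator of CREB, was the 1 called in KO against WT tumors (0.64, SE 0.11, adjusted p = 0.00458), and Rps6ka5, a kinase that acts on CREB and histone H3, was the 1 called in tumors against glands (0.77, SE 0.11, adjusted p = 2.38e-06), against 1.11% and 14.9% of all genes. Of 16 heat shock genes, 1 was called in each of these comparisons and 1 between KO and WT glands, where 0.906% of all genes were. Hspb1 was lower in tumors (-0.69, SE 0.13, adjusted p = 0.000117). Hsph1 was higher in KO than WT tumors (0.91, SE 0.17, adjusted p = 0.00864) and in KO than WT glands (1.1297, SE 0.21, adjusted p = 0.0144).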

How the data were processed

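RNAseq counts were taken from the table of raw read counts that the authors deposited. Per the labels and the study's methods, RNA of sorted GFP+ cells was depleted of rRNA and made into stranded libraries, which the authors aligned with HISAT to GRCm38, freed of duplicates with Picard 1.128 and counted per gene with HTSeq. The authors also deposited a normalized signal, counts divided by a size factor per library, and it was used only as a check (r with the log2 CPM used here at least 0.995 for every member). Of the rows, 111 are spike-in, reporter or transgene sequences (0.0778% of reads) and entered neither the library sizes nor any test. No pair of libraries of 1 condition agreed within sampling noise (lowest chi-square per degree of freedom 37.4 over 25 pairs).

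Counts were fitted in edgeR 4.0.16 (R 4.3.3) with TMM, a quasi-likelihood F test and 1 coefficient per condition for 14 conditions, on 36527 genes with at least 10 reads in sum. The lone WT tumor of week 12 was fitted but entered no comparison. Adjusted p is Benjamini-Hochberg over all genes tested. Log2 CPM used a prior count of 2. The p-values weigh a difference between conditions against the spread between mice, pooled over conditions and moderated over genes. Alternatives were DESeq2 1.42.0, other size factors, no filter, a replicate block, the rRNA share as covariate and leaving out each of 32 libraries, in 96 fits that reused the dispersion trend of all libraries. The members and lists were chosen with earlier results of these data known. All members are named, with list genes chosen by call and size of change, at most 5 per comparison for immediate early genes and 3 for the other lists, except Tnfaip3, which was added after its value was seen.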

Additional observations from a re-analysis of the deposited data

Results flagged for a closer look

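Of 40 groups formed by 1 member in 1 genotype and tissue, 4 held a library far from the rest by Dixon's test on log2 CPM, and chance gives about 1 in 20. Atf3 was 237 CPM in replicate 1 of the KO glands of week 12, where the other 5 KO glands held 81.7 to 104 CPM. The same mouse had the highest mean level of all members. Replicate 1 of the KO tumors of week 12 was lowest of the 9 KO tumors in Egr2 (1.28 CPM) and Egr3 (3.57 CPM), and also held the lowest Fos (416 CPM). The WT tumor of week 12 was lowest of the 10 WT tumors in Junb (377 CPM).

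That tumor has no replicate and entered no comparison. It held more Fos (761 CPM), Egr1 (121 CPM) and Ier2 (128 CPM) than any WT gland, whose highest values were 725, 90.8 and 118 CPM.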

How the results depend on the processing

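Most results kept their direction and side of the threshold. Without the filter on low counts, 10 members differed among conditions, 4 between KO and WT tumors at matched weeks, 17 in single pairs and 2 with age. DESeq2 called 2 members between KO and WT tumors at matched weeks and 1 with age, as did a fit of only the conditions compared with age (1). With the replicate block, KO tumors against glands gave 1 call in place of 2, since Ier2 (0.56) fell under the fold limit. The block changed no other comparison's count by over 1.5 times, and the numbers do not pair the mice (median r of same-numbered libraries 0.031). With KO libraries of high rRNA share left out, an alternative chosen after seeing the data, KO against WT tumors at matched stages gave 1 call. The causes were not tested, except that leaving out libraries leaves fewer samples.

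Leaving out 1 library gave 3 to 5 calls in WT tumors against glands, 1 to 3 in KO tumors against glands, 1 to 5 in KO against WT tumors at matched stages, 0 to 1 in KO against WT glands, 4 to 7 for covariation with Fos and 0 to 1 with the rRNA share. A condition of 2 mice then rests on 1, which is assumed to vary like the others. The lowest members, Egr2 and Egr3, rest on the fewest reads.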

Other observations

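The WT tumor of week 12 lay above the other WT tumors in several listed genes, given as values of 1 library. Dusp1 was 225 CPM there, against at most 62.6 CPM in the other 9 WT tumors and 84.6 to 239 CPM in KO tumors. Per1 was 40.0 CPM, against at most 18.04 CPM in the other WT tumors, and Zfp36 was 102 CPM, against at most 65.7 CPM in the other WT tumors and 91.5 CPM in KO tumors. Crtc2 was 21.6 CPM and the other WT tumors held at most 16.1 CPM. These genes were singled out after their values were seen.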
